A study of Rattus norvegicus with 16 samples.

Results

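The complement components described here are 9 genes, C1qa, C1qb, C1qc, C1s, C2, Cfb, Cfd, C3 and C5ar1. They were chosen by name, but with earlier results of these data known, so the shares of all probes beside their counts serve as description only. Every probe whose RefSeq transcript maps to one of these rat symbols was taken, control spots left out. This gave 10 of the 30367 probes and 9 of the 15159 named genes on the array, with a pair of probes for C2. Complement is a cascade of secreted proteins that tags microbes and damaged cells for removal. C1q bound to antibody or to cell debris starts the classical pathway through the proteases C1r and C1s, factor D and factor B drive the alternative pathway, and both cleave C3, whose products lead to the fragment C5a, a strong attractant of leukocytes. In the intestine, C3 is made locally by epithelial and stromal cells, and C1q comes largely from tissue macrophages.

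RNA of normal distal colon from 16 male (ACIxF344)F1 rats was measured on single-colour Agilent arrays, 1 array per rat and 4 rats per group. The groups were wildtype untreated (rats 13, 17, 21 and 25), wildtype given DSS (rats 14, 18, 22 and 26), Pirc/+ untreated (rats 11, 15, 19 and 23) and Pirc/+ given DSS (rats 12, 16, 20 and 24). Values of single rats follow this order throughout. Pirc rats carry, in all their cells, 1 copy of Apc with a nonsense mutation and develop colonic tumors, but the tissue labelled as normal was the only one analysed. DSS, dextran sodium sulfate, is a polysaccharide that injures the colonic epithelium and causes colitis. It was given at 4% in the water over 2 courses, at 40 to 47 and at 54 to 61 days of age. All 16 rats were fed freely under a daily light cycle and were sampled at 97 days of age, 36 days after the last DSS. The tissue was homogenised whole, so that more cells of a type and more RNA per cell cannot be told apart in any of the results. Levels are log2 of the processed signal relative to the 75th percentile of the array, so that 0 is the level of that percentile and a step of 1 is a factor of 2.

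All 9 measured markers of colon epithelium, with Lgals4 the most abundant, were well above background on all 16 arrays. Apc, the gene mutated in Pirc rats, lay between -3.39 and -2.94 in untreated wildtype rats, between -3.40 and -3.09 in untreated Pirc rats, between -3.24 and -2.79 in DSS-treated wildtype rats and between -4.08 and -3.64 in DSS-treated Pirc rats. Its difference after DSS was -0.59 in Pirc rats (SE 0.15, limma adjusted p = 0.0173) and 0.26 in wildtype rats (adjusted p = 0.439), and the difference between these effects did not pass (-0.85, adjusted p = 0.199). Among DSS-treated rats Apc was lower in Pirc than in wildtype rats, with a log2 difference of -0.82 (SE 0.15, adjusted p = 0.0033). The probe does not separate the alleles and checks no genotype. Over all probes, 13 of 16 rats had their nearest array, by root mean square difference, in their own group. The exceptions were DSS-treated Pirc rat 16, nearest to DSS-treated wildtype rat 18, and untreated Pirc rat 23 and DSS-treated wildtype rat 26, both nearest to untreated wildtype rat 25. Without rat 16 or without rat 23, 7 members were past the threshold for DSS in Pirc rats and 5 in wildtype rats, and without rat 26 the counts were 8 and 6, against 7 and 6 with all rats. Each slide held 2 rats of every group. Each group lay in 1 array column, so that effects of the column and of the group cannot be told apart.

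Most of the 9 members were higher in DSS-treated than in untreated rats of both genotypes. In Pirc rats 7 of the 9 members rose, namely C1qa, C1qc, C1s, Cfb, Cfd, C3 and C5ar1, against 8.14% of all probes that were higher by the same test (limma, adjusted p of 0.05 or less), and none fell, against 6.51% of all probes. The median log2 change of the 9 members was 2.34, beside 0.04 over all probes. For 8 of the 9, all 4 DSS-treated Pirc rats lay above all 4 untreated ones, which held for 8.88% of all probes, and for none did they lie below, as for 8.06%. In wildtype rats 6 of the 9 rose (C1qa, C1qb, C1qc, C1s, Cfd and C5ar1), against 2.94% of all probes, and none fell, against 0.899% (3.84% in either direction). The median change there was 1.54, beside 0.09 over all probes, and the same 6 members separated the groups without overlap, as did 8.0% of all probes, with 4.44% of all probes separated the other way and 0 members.

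**Figure D1:**
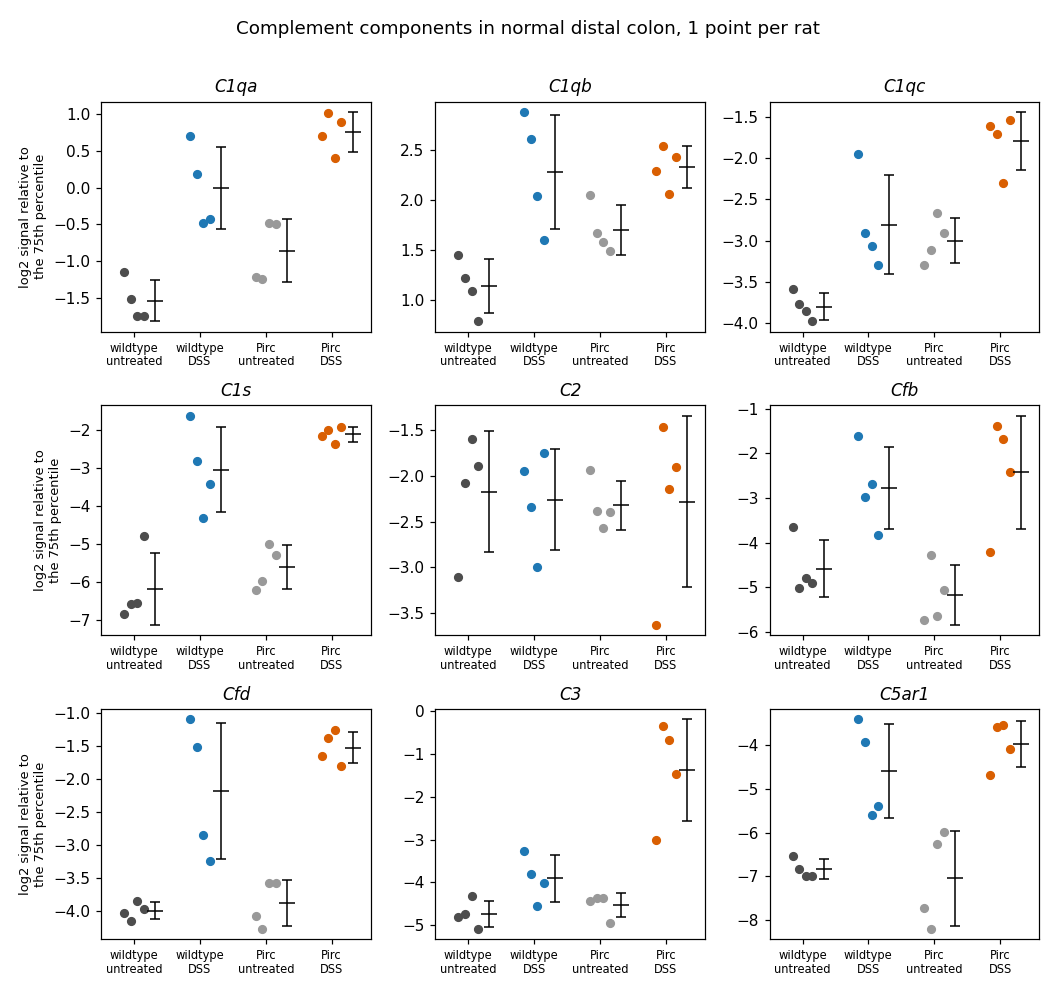
Level of each complement component in every rat, as log2 signal on the scale of the text (vertical axis, relative to the array's 75th percentile, a different range in each panel), by group (horizontal axis). Points are single rats and the bars beside them give the mean and 1 SD of the 4 rats; in 8 panels the DSS-treated Pirc rats all lie above the untreated Pirc rats, while in the panel of C2 the groups overlap.

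The recognition molecule C1q is built from 3 chains, each with its own gene. C1qa, the A chain, was at -1.15, -1.52, -1.75 and -1.75 in untreated wildtype rats, at 0.71, 0.18, -0.48 and -0.43 in DSS-treated wildtype rats, at -1.22, -1.24, -0.48 and -0.49 in untreated Pirc rats and at 0.71, 1.02, 0.40 and 0.89 in DSS-treated Pirc rats. C1qb, the B chain, was at 1.45, 1.22, 1.09 and 0.79, then at 2.88, 2.61, 2.04 and 1.60, then at 2.05, 1.67, 1.58 and 1.49, and at 2.29, 2.54, 2.06 and 2.43 in the same groups. C1qc, the C chain, was at -3.59, -3.77, -3.86 and -3.98, then at -1.95, -2.91, -3.06 and -3.30, then at -3.30, -3.12, -2.67 and -2.91, and at -1.61, -1.71, -2.30 and -1.54. Within each genotype, every DSS-treated rat lay above every untreated rat for each of the 3 chains, though for C1qb in Pirc rats the groups nearly touched (rat 20 at 2.06 and rat 11 at 2.05). C1qa rose by 1.61 in Pirc rats (SE 0.27, adjusted p = 0.00135) and by 1.54 in wildtype rats (SE 0.27, adjusted p = 0.00744), a factor of 3.06 and 2.90. C1qc rose by 1.21 in Pirc rats (SE 0.26, adjusted p = 0.00583) and by 0.99 in wildtype rats (SE 0.26, adjusted p = 0.0459), and the latter value lost its call under several settings (adjusted p from 0.0308 to 0.11 over 10 alternatives). With normexp the changes of C1qc were 0.90 and 0.60. This alternative differs in several steps at once, since it starts from the median spot signal and its local background, adds an offset of 50, which draws dim signals together, and normalizes by quantiles, and which step moves a value was not tested. C1qb rose by 1.15 in wildtype rats (SE 0.24, adjusted p = 0.0182). In Pirc rats its difference of 0.63 (SE 0.24, 95% interval 0.11 to 1.15) did not pass the test (adjusted p = 0.103), but it passed with slide as a block (adjusted p = 0.032; 0.032 to 0.121 over the 10 alternatives). The genes of the 3 chains neighbour each other on chromosome 5, with 0 other genes between them in the gene table.

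C1s, the protease of the C1 complex that cleaves C4 and C2, was at -6.84, -6.57, -6.54 and -4.80 in untreated wildtype rats, at -1.63, -2.83, -4.31 and -3.42 in DSS-treated wildtype rats, at -6.20, -5.97, -4.99 and -5.29 in untreated Pirc rats and at -2.16, -2.02, -2.38 and -1.93 in DSS-treated Pirc rats. The 4 DSS-treated Pirc rats lay close together, whereas the DSS-treated wildtype rats were spread widely, with rat 14 the highest (-1.63) and rat 22 the lowest (-4.31). C1s rose by 3.49 in Pirc rats (SE 0.51, adjusted p = 0.000533) and by 3.14 in wildtype rats (SE 0.51, adjusted p = 0.00508), a factor of 11.3 and 8.83, and by 1.98 and 1.45 with normexp. C2, the component that C1s cleaves to form the C3 convertase of the classical pathway, was at -3.11, -2.08, -1.60 and -1.89 in untreated wildtype rats, at -1.95, -2.34, -3.00 and -1.75 in DSS-treated wildtype rats, at -1.93, -2.38, -2.57 and -2.39 in untreated Pirc rats and at -3.63, -1.46, -2.14 and -1.90 in DSS-treated Pirc rats. The groups overlapped in all comparisons, and rat 12 was the lowest of the 16. The difference of C2 was 0.04 in Pirc rats (95% interval -0.88 to 0.95) and -0.09 in wildtype rats (95% interval -1.0 to 0.82), with adjusted p of 0.969 and 0.938, which leaves room for a change of nearly a factor of 2 either way. The other probe of C2 gave 0.04 and -0.11.

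Cfb, factor B, carries the protease domain of the alternative C3 convertase, and its gene lies next to C2 on chromosome 20. It was at -3.64, -5.01, -4.79 and -4.91 in untreated wildtype rats, at -1.60, -2.98, -2.68 and -3.82 in DSS-treated wildtype rats, at -5.73, -4.28, -5.65 and -5.07 in untreated Pirc rats and at -4.21, -1.39, -1.68 and -2.42 in DSS-treated Pirc rats. The DSS-treated Pirc rats were above the untreated ones, rat 12 only just over rat 15 (-4.21 and -4.28), while in wildtype rats untreated rat 13 lay above DSS-treated rat 26. Cfb rose by 2.76 in Pirc rats (SE 0.59, adjusted p = 0.00599), a factor of 6.77, with a change of 1.62 with normexp. In wildtype rats its difference of 1.82 (SE 0.59, 95% interval 0.56 to 3.08; 1.04 with normexp) did not pass (adjusted p = 0.112).

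Cfd, factor D or adipsin, is the protease that cleaves factor B and is abundant in fat tissue. It was at -4.04, -4.15, -3.85 and -3.98 in untreated wildtype rats, at -1.10, -1.52, -2.86 and -3.25 in DSS-treated wildtype rats, at -4.08, -4.27, -3.58 and -3.58 in untreated Pirc rats and at -1.66, -1.39, -1.27 and -1.81 in DSS-treated Pirc rats. The 8 untreated rats lay between -4.27 and -3.58, and all 8 DSS-treated rats were above them. Cfd rose by 2.34 in Pirc rats (SE 0.37, adjusted p = 0.000869) and by 1.82 in wildtype rats (SE 0.37, adjusted p = 0.0142), a factor of 5.07 and 3.54, and the changes were 1.78 and 1.33 with normexp.

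C3, the component on which all pathways meet, was at -4.81, -4.74, -4.33 and -5.08 in untreated wildtype rats, at -3.26, -3.80, -4.56 and -4.01 in DSS-treated wildtype rats, at -4.44, -4.36, -4.37 and -4.94 in untreated Pirc rats and at -3.02, -0.34, -0.67 and -1.47 in DSS-treated Pirc rats. All 4 DSS-treated Pirc rats were above the other 12 rats, rat 12 the lowest of them and near wildtype rat 14. In wildtype rats the groups overlapped, since DSS-treated rat 22 lay below untreated rat 21. C3 rose by 3.15 in Pirc rats (SE 0.45, adjusted p = 0.000441), a factor of 8.90, with a change of 2.24 with normexp. In wildtype rats its difference was 0.83 (SE 0.45, 95% interval -0.13 to 1.79, adjusted p = 0.389; 0.32 with normexp). The group means ran from -4.74 ± 0.31 (SD, n = 4) in untreated wildtype rats over -4.53 ± 0.27 in untreated Pirc rats and -3.91 ± 0.54 in DSS-treated wildtype rats to -1.38 ± 1.19 in DSS-treated Pirc rats, and among the first 3 groups no tested difference passed.

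C5ar1, the receptor through which C5a calls in neutrophils and macrophages, was the dimmest against its background. It was well above background on 11 of 16 arrays, which were 1 of 4 in untreated wildtype, 2 of 4 in untreated Pirc and all in both DSS-treated groups. It was at -6.53, -6.83, -6.99 and -7.00 in untreated wildtype rats, at -3.41, -3.94, -5.60 and -5.40 in DSS-treated wildtype rats, at -7.72, -8.19, -6.27 and -5.99 in untreated Pirc rats and at -4.69, -3.58, -3.55 and -4.09 in DSS-treated Pirc rats. All 8 DSS-treated rats lay above all 8 untreated ones. C5ar1 rose by 3.07 in Pirc rats (SE 0.53, adjusted p = 0.00152) and by 2.25 in wildtype rats (SE 0.53, adjusted p = 0.0296). The size depends on how dim signals are processed: with normexp the changes were 0.88 and 0.69, and with a common floor for dim probes 2.19 and 1.64. The wildtype call was lost under both of these, with quantile normalization and with only the wildtype arrays fitted (adjusted p from 0.0202 to 0.0628 over the 10 alternatives).

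**Figure D2:**
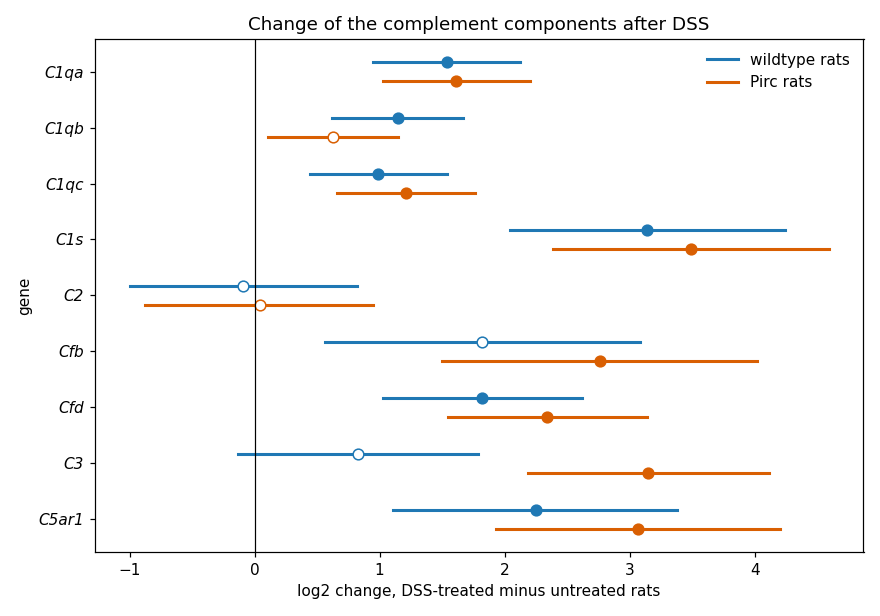
Change of each complement component after DSS in wildtype and in Pirc rats, as DSS-treated minus untreated log2 level (horizontal axis), with the genes in order of their role (vertical axis). Circles are the changes fitted with limma, filled where the adjusted p was 0.05 or less and open where it was not, and lines are 95% intervals; C1s lies at 3.49 in Pirc and 3.14 in wildtype rats, C2 at 0.04 and -0.09, and C3 was at 3.15 in Pirc and 0.83 in wildtype rats.

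Both slides gave the DSS changes, at unequal size. In Pirc rats the change on slide 1 and on slide 2 was 2.10 and 1.13 for C1qa, 0.55 and 0.71 for C1qb, 1.55 and 0.87 for C1qc, 4.00 and 2.99 for C1s, 2.21 and 3.31 for Cfb, 2.65 and 2.04 for Cfd, 2.72 and 3.59 for C3 and 3.82 and 2.31 for C5ar1. In wildtype rats it was 1.79 and 1.29 for C1qa, 1.41 and 0.88 for C1qb, 1.25 and 0.74 for C1qc, 4.48 and 1.81 for C1s, 2.03 and 1.60 for Cfb, 2.79 and 0.86 for Cfd, 1.25 and 0.42 for C3 and 3.0 and 1.49 for C5ar1. For these 8 members the sign was the same on both slides in each genotype, and only C2 turned, at -0.39 and 0.46 in Pirc and 0.45 and -0.63 in wildtype rats. With slide as a block 8 members rose in Pirc rats and 6 in wildtype rats, where 15.3% and 4.37% of all probes passed in either direction, against 14.7% and 3.84% without the block. In DSS-treated wildtype rats 7 of 9 members were higher in both rats of slide 1 (rats 14 and 18) than in both of slide 2, against 25.7% of all probes, and 0 the other way, against 15.7%. In untreated wildtype rats these counts were 4 and 3 of 9, against 22.1% and 14.4%, in untreated Pirc rats 2 and 5, against 18.3% and 11%, and in DSS-treated Pirc rats 0 and 0, against 28.1% and 6.31%. The wildtype count of members past the threshold was less firm than the Pirc count: when only the 8 wildtype arrays were fitted, 1 of the 6 members (C1qa) passed, whereas with only the 8 Pirc arrays the count was 7. Of all probes, 1.73% passed with only the wildtype arrays, against 3.84% with all arrays, and 8.31% with only the Pirc arrays, against 14.7%.

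By group means, C1qa, C1qb, C1qc, C1s, Cfd and C3 followed 1 order, from untreated wildtype over untreated Pirc and DSS-treated wildtype to DSS-treated Pirc rats. For Cfb and C5ar1 untreated Pirc rats were the lowest and untreated wildtype rats came next, though for C5ar1 these 2 groups changed places with normexp (difference of 0.01) and with a common floor (0.06). In either order the lowest neighbours, the 2 untreated groups, were not shown to differ for any member, and the highest neighbours, the 2 DSS-treated groups, only for C3 and C1qc.

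Untreated Pirc and wildtype rats were compared to ask whether the mutation alone moves the members. None of the 9 passed the test (limma), as did 0% of all probes, with 3 members and 3103 probes at an unadjusted p under 0.05. The median difference of the members was 0.21, beside -0.02 over all probes. All 4 untreated Pirc rats lay above all 4 untreated wildtype rats for 2 of 9 members, C1qb and C1qc, as they did for 4.69% of all probes, and for 0 members did they lie below, against 4.02%. The difference was 0.56 for C1qb (SE 0.24, 95% interval 0.04 to 1.08, adjusted p = 0.453), 0.80 for C1qc (SE 0.26, 95% interval 0.25 to 1.35, adjusted p = 0.311) and 0.68 for C1qa (SE 0.27, 95% interval 0.10 to 1.27, adjusted p = 0.404). On slide 1 and slide 2 these were 0.53 and 0.59, 0.47 and 1.13, and 0.11 and 1.26. The other 6 members differed by between -0.60 (Cfb) and 0.57 (C1s), with overlapping groups.

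Among DSS-treated rats, 2 of 9 members were higher in Pirc than in wildtype rats, C3 and C1qc, against 9.47% of all probes, and none was lower, against 8.76%. The median difference of the members was 0.65, beside -0.11 over all probes. C3 was higher by 2.53 (SE 0.45, adjusted p = 0.0028), a factor of 5.78, and was the only 1 of the 9 members for which the groups did not overlap, which held for 9.62% of all probes, with 9.13% separated the other way. Its difference was 1.85 on slide 1 and 3.22 on slide 2 (adjusted p = 0.00416 with slide as a block). C1qc was higher by 1.02 (SE 0.26, adjusted p = 0.0148), with 3 of the 4 Pirc rats above all wildtype rats, by 0.77 on slide 1 and 1.27 on slide 2 (adjusted p = 0.015 with slide as a block), but it did not pass when only the DSS-treated arrays were fitted (adjusted p = 0.0832, in a range from 0.00953 to 0.0832 over the 10 alternatives). C1qa differed by 0.76 (SE 0.27, adjusted p = 0.0685), which passed with normexp and with a filter on dim probes (adjusted p from 0.0465 to 0.141 over the 10 alternatives). C1qb was nearly level, at 0.04 (95% interval -0.48 to 0.56), and C2 at -0.02 (95% interval -0.94 to 0.89). C1s, Cfb, Cfd and C5ar1 differed by 0.92, 0.35, 0.65 and 0.61 with overlapping groups and did not pass, and on slide 1 the difference of Cfb, Cfd and C5ar1 ran the other way, at -0.51, -0.22 and -0.46.

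The DSS effects of the 2 genotypes were also set against each other in the same model. None of the 9 members passed this test, against 0.0428% of all probes, with 1 member and 3234 probes at an unadjusted p under 0.05. That member was C3, whose effect was larger in Pirc rats by 2.32 (SE 0.64, 95% interval 0.96 to 3.68), with an unadjusted p of 0.00248 and an adjusted p of 0.23, with a range from 0.134 to 0.263 over 9 alternatives. It passed without DSS-treated Pirc rat 12 (adjusted p = 0.012, where the other rats left out gave up to 0.459). The median of the members was 0.35, beside -0.06 over all probes. For the others the difference of effects was 0.07 for C1qa, -0.52 for C1qb, 0.22 for C1qc, 0.35 for C1s, 0.13 for C2, 0.94 for Cfb, 0.52 for Cfd and 0.82 for C5ar1, with standard errors from 0.35 to 0.83. So for Cfb, C1qb and C3, each past the threshold in only 1 genotype, the effects of the genotypes were not shown to differ with all rats in the fit.

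The rest of the complement system was taken from lists of 48 genes, of which 41 were measured. In Pirc rats 13 of the 41 rose after DSS and 0 fell, and in wildtype rats 12 rose and 0 fell, with medians of 0.38 and 0.32. Of all probes 8.14% and 2.94% were higher, 6.51% and 0.899% were lower, and the medians were 0.04 and 0.09. The counts after DSS of each list below, marker lists included, stand beside these shares. Of the classical and lectin pathway, 3 of 11 rose in each genotype. C1r, the partner protease of C1s and its neighbour on chromosome 4, rose by 1.82 in Pirc (SE 0.31, adjusted p = 0.00134) and 1.70 in wildtype rats (SE 0.31, adjusted p = 0.00846). C4a rose by 2.81 (SE 0.40, adjusted p = 0.000402) and 2.89 (SE 0.40, adjusted p = 0.00222), with the reservation that its probe may also detect C4b, a near copy not analysed here. Colec12, a scavenger receptor of the collectin family, was not well above background on any untreated wildtype array. By the lowest signal well above background on those arrays it was at least 1.55-fold higher after DSS in wildtype rats (adjusted p = 0.022). In Pirc rats, with 1 of 4 untreated and 4 of 4 DSS-treated arrays above background, it rose by 2.32 (adjusted p = 0.00637). With a common floor for dim probes Colec12 did not pass in either genotype, and in wildtype rats neither with normexp nor with only the wildtype arrays fitted (adjusted p up to 0.221 in Pirc and 0.52 in wildtype rats over the 10 alternatives). Over these alternatives its log2 change was as low as 0.34 in Pirc rats and 0.32 in wildtype rats, the latter below the bound given. Fcna, Fcnb and the brightest probe of Masp1, of the lectin pathway, were well above background on all arrays and did not pass, while 2 other probes of Masp1 were above background on 0 and 1 array. Of the alternative pathway and terminal components (Cfp, C6, C8a, C8b and C9 measured), 0 of 5 passed in either genotype (limma, 1 gene in each at an unadjusted p under 0.05).

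Of the regulators, which hold complement in check, 4 of 16 rose in Pirc and 6 of 16 in wildtype rats, with medians of 0.16 and 0.26. Serping1, the inhibitor of C1r and C1s, rose by 2.39 in Pirc (SE 0.38, adjusted p = 0.000901) and 2.23 in wildtype rats (SE 0.38, adjusted p = 0.00603). Clu, an inhibitor of the membrane attack complex, rose by 1.37 and 1.28 (SE 0.22 each), and Thbd, thrombomodulin, by 2.12 and 2.47 (SE 0.52 each). A dimmer probe of Thbd did not pass in either genotype. With only the wildtype arrays fitted, the wildtype calls of Serping1, Thbd, C1r and Cd93, a receptor given below, were lost (adjusted p of 0.0584, 0.0571, 0.0642 and 0.0724, the highest of the 10 alternatives, with lowest values of 0.00385, 0.0111, 0.00543 and 0.00768). The membrane inhibitors Cd55 and Cd59b rose in wildtype rats, by 1.75 (SE 0.44, adjusted p = 0.0389) and 0.66 (SE 0.17, adjusted p = 0.0494), and among DSS-treated rats Cd59b was lower in Pirc than in wildtype rats by 0.64 (log2 difference -0.64, SE 0.17, adjusted p = 0.0205), a call lost with only the DSS-treated arrays fitted (adjusted p from 0.0054 to 0.0746 over the 10 alternatives) and without rat 12, 14 or 20 (up to 0.067). The difference of DSS effects did not pass for Cd55 (-0.71, adjusted p = 0.731) or Cd59b (-0.66, adjusted p = 0.356). Both wildtype calls were lost with a common floor and with only the wildtype arrays fitted (adjusted p from 0.00898 to 0.0753 for Cd55 and from 0.0269 to 0.0936 for Cd59b over the 10 alternatives). With 1 rat left out, the Cd55 call was lost without any of 7 rats (adjusted p up to 0.145) and the Cd59b call without any of 13 (up to 0.169). Another probe of Cd55, above background on all 16 arrays, rose by 1.82 in wildtype rats (SE 0.30, adjusted p = 0.00493), without overlap of the groups.

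Of the receptors 6 of 9 rose in Pirc and 3 of 9 in wildtype rats. Itgb2 and Itgam, the chains of complement receptor 3, and Cd93 rose in both: Itgb2 by 2.72 and 2.55 (SE 0.40 each) and Cd93 by 2.19 and 2.06 (SE 0.40 each). Itgb2 was well above background on 11 of 16 arrays (1 of 4 in untreated wildtype, 2 of 4 in untreated Pirc and all DSS-treated rats), and its changes were 1.99 and 1.75 with a common floor and 0.78 and 0.70 with normexp, where those of Cd93 were 1.37 and 1.06. Itgam rose by 1.93 in wildtype rats (SE 0.38, adjusted p = 0.0124). In Pirc rats 0 of 4 untreated arrays were above background, and by the lowest signal well above background on them Itgam was at least 1.88-fold higher after DSS. It did not pass in either genotype with a common floor, nor in wildtype rats with normexp (adjusted p up to 0.566 in Pirc and 0.962 in wildtype rats over the 10 alternatives). Over these alternatives its log2 change was as low as 0.25 in Pirc rats, below that bound, and 0.14 in wildtype rats. C5ar2, the other receptor of C5a, was at -9.39, -9.18, -9.13 and -8.18 in untreated Pirc rats, none well above background, and at -5.93, -4.54, -4.97 and -5.65 in DSS-treated Pirc rats. By the lowest signal well above background on each array it was at least 3.67-fold higher there (adjusted p = 0.000122), but its size rests on how dim signals are set: the log2 change was 0.95 with a common floor and 0.59 with normexp, where it passed as well (adjusted p up to 0.0139 over the 10 alternatives). Between the DSS-treated groups the Pirc rats were higher by 2.67 (SE 0.41, adjusted p = 0.0014; 0.93 with a common floor and 0.50 with normexp), with 1 of 4 wildtype arrays above background. On the untreated wildtype arrays C5ar2 was above background on 0 of 4. Its change of 0.86 in wildtype rats (adjusted p = 0.317) and the difference of the DSS effects of 2.84 (SE 0.58, adjusted p = 0.116) did not pass. With signals this dim, these sizes are not exact. C3ar1, the receptor of C3a, rose by 2.30 in Pirc rats (SE 0.52, adjusted p = 0.00823), where 1 of 4 untreated and 4 of 4 DSS-treated arrays were above background. It did not pass with a common floor, and over the 10 alternatives its log2 change ran from 0.14 to 2.31 (adjusted p from 0.00559 to 0.459). The difference of the DSS effects for C3ar1 was 1.68 (adjusted p = 0.436). C1qbp, a mitochondrial protein that binds the globular heads of C1q, rose by 0.60 in Pirc rats (SE 0.16, adjusted p = 0.0201), not with only the Pirc arrays fitted (adjusted p from 0.0127 to 0.0995 over the 10 alternatives) nor without rat 11, 12, 19 or 20 (up to 0.0716), with a difference of the DSS effects of 0.81 (adjusted p = 0.235), and was higher in DSS-treated Pirc than in DSS-treated wildtype rats by 0.92 (SE 0.16, adjusted p = 0.00245). Among the 41 genes, 0 passed between untreated Pirc and wildtype rats and 0 in the difference of DSS effects (limma, 2 and 4 genes at an unadjusted p under 0.05).

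Some markers of macrophages, neutrophils, fibroblasts, adipocytes and stratified epithelium also rose after DSS, and their part in the result was not tested. No listed marker of colon epithelium, smooth muscle or hepatocytes passed as higher after DSS in either genotype. Signal sums below are multiples of the 75th percentile of the array, over the measured genes of a list, and the gene said to lead a sum is, unless rats are named, the one with the highest mean level over the 16 rats. Of 12 macrophage markers, 6 rose and 1 fell (Ctss, the most abundant) after DSS in Pirc rats and 5 rose in wildtype rats. Their sum was 28.5, 27.5, 33.6 and 27.5 in untreated wildtype, 46.0, 39.4, 33.7 and 31.0 in DSS-treated wildtype, 35.2, 32.6, 29.4 and 25.3 in untreated Pirc and 31.2, 33.9, 34.6 and 36.7 in DSS-treated Pirc rats. Cd68 rose by 1.87 and 1.36 (SE 0.25 each) in Pirc and wildtype rats. The other 5 markers in Pirc and 7 in wildtype rats did not pass, among them Csf1r and Cd14 in both. The mean of Csf1r was -3.33 in untreated and -3.01 in DSS-treated wildtype rats, and -3.26 and -3.04 in Pirc rats. For Cd14 these means were 3.27 and 3.53 in wildtype rats, and 3.61 and 3.33 in Pirc rats. Another probe of the macrophage marker Fcgr1a did not pass in wildtype rats (adjusted p = 0.0908), where the brightest did. Of 10 neutrophil markers 4 rose in each genotype (S100a8, S100a9, Cxcr2 and Ncf1), and their sum, led by S100a9, was 1.06, 1.03, 0.893 and 1.21, then 4.75, 4.08, 4.98 and 1.58, then 1.68, 1.68, 1.57 and 2.25, and 9.98, 38.9, 34.3 and 17.1. The neutrophil marker Elane was not well above background on any array.

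Of 9 fibroblast markers, 7 rose in Pirc and 5 in wildtype rats, and their sum, led by Col1a2, was 1.42, 1.41, 1.47 and 1.92 in untreated wildtype, 14.6, 8.10, 2.65 and 3.1 in DSS-treated wildtype, 1.58, 1.62, 2.67 and 2.72 in untreated Pirc and 5.79, 14.9, 5.52 and 9.34 in DSS-treated Pirc rats. The brightest probe of Col1a1 rose by 2.53 and 2.18, and another, on all arrays above background, did not pass (0.69 and 0.64). Of 7 adipocyte markers, 2 rose in Pirc (Adipoq and Fabp4) and 1 in wildtype rats (Fabp4), and their sum, led by Adipoq, was 0.372, 0.362, 0.469 and 0.395, then 1.85, 0.984, 1.0 and 0.488, then 0.508, 0.393, 0.431 and 0.674, and 2.28, 3.78, 3.18 and 1.36. In the DSS-treated groups Cfd ran between -3.25 and -1.10. Of 9 stratified epithelium markers, 7 rose in Pirc and 2 in wildtype rats (Krt13 and Sprr3). Their sum was led by Tp63 in the untreated rats and by Krt13 in all 4 DSS-treated Pirc rats and in DSS-treated wildtype rat 22. The probe of Tp63 that enters the sum was nearly level over the groups (change of 0.00 in Pirc and 0.06 in wildtype rats), whereas a dimmer probe of Tp63, above background on 6 of 16 arrays, was at least 59.9-fold higher after DSS in Pirc rats (adjusted p = 0.00147). The sum was 4.39, 4.93, 4.37 and 4.52, then 7.11, 8.72, 40.3 and 4.26, then 4.16, 3.64, 3.61 and 4.23, and 19.1, 43.5, 98.5 and 79.4. Ivl of this list was not well above background on any array.

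Between DSS-treated Pirc and wildtype rats, where C3 and C1qc differed, 3 of 10 neutrophil markers (S100a8, S100a9 and Camp), 3 of 9 stratified epithelium markers (Krt13, Krt4 and Krt15), Adipoq and Aif1 were higher in Pirc rats, and Ctss, Fbln1 and 4 of 9 colon epithelium markers (Epcam, Cdh1, Vil1 and Slc26a3) were lower, against 9.47% and 8.76% of all probes. Of the 9 hepatocyte markers, Tf was higher and Apoc3 lower in DSS-treated Pirc than in DSS-treated wildtype rats. Lists with 1 such gene are near the shares of all probes. After DSS, of 9 colon epithelium markers 2 fell in Pirc rats (Epcam and Slc26a3), against 6.51% of all probes, and 0 passed in wildtype rats (limma, 4 at an unadjusted p under 0.05). Their sums were 500, 417, 445 and 382, then 565, 540, 534 and 466, then 438, 418, 331 and 461, and 398, 543, 338 and 401 in the order of groups used above. Of 8 smooth muscle markers, led by Smtn except in wildtype rats 25 and 26 (Actg2), 1 fell in Pirc rats (Des) and 0 passed in wildtype rats (limma, 1 at an unadjusted p under 0.05), with sums of 4.19, 4.27, 4.27 and 9.69, then 3.88, 3.89, 3.51 and 14.6, then 3.47, 3.47, 3.71 and 3.61, and 2.99, 6.17, 2.77 and 3.33. Lmod1 was not well above background on any array. The liver is the main source of plasma complement. The hepatocyte markers Fgg, Ttr and Cyp2e1 were not well above background on any array, with Alb and Fgb above it on 1 array each. Tf, Apoa1 and Serpina1 were well above background on all 16 arrays, and Apoc3 on 15. Of the 9 hepatocyte markers, led by Tf, 0 passed in Pirc (limma, 1 at an unadjusted p under 0.05) and 1 fell in wildtype rats (Tf), with sums of 11.2, 11.4, 8.61 and 17.3, then 6.81, 6.46, 5.05 and 13.3, then 11.8, 11, 15.3 and 11.4, and 8.66, 9.97, 10.1 and 8.95.

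Genes whose pattern over the 16 rats was most like that of a member were sought by the root mean square difference of log2 levels, each gene centred on its own mean, among 12147 named probes well above background on all arrays. The members were left out of these candidates, so that no member could be named as nearest to another. For C1qa these were Aif1, a macrophage gene (0.16, where C1qa itself varied by 0.94 around its mean), Gngt2 (0.23) and Spon1 (0.23). For C1qc they were Dnase1l3 (0.19) and another probe of Aif1 (0.27), and for C1qb Cers1 (0.21), Egfr (0.25) and Itgb6 (0.25). The 3 genes nearest to C1s encode matrix proteins, elastin Eln (0.39), decorin Dcn (0.46) and the collagen chain Col4a1 (0.47), where C1s varied by 1.84. For Cfd they were Vsir (0.28), Emp3 (0.33) and Igsf6 (0.33), and for Cfb Ecm1 (0.50), Wfdc21 (0.59) and Pdlim2 (0.60). For C3, which varied by 1.47, they were Gpha2 (0.44), Sting1 (0.49) and Tmprss11g (0.50). For C5ar1 they were Lyz2, the lysozyme of macrophages (0.51), Col1a1 (0.53) and Sh3bp5 (0.54).

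Because most members moved together after DSS, their promoters were read from a separate table of RefSeq promoter sequences (build GRCr8), which is not complete and held 4 of the 9 members, C1qa, C1qb, Cfd and C3. The 250 bases before each transcription start were searched on both strands for the gamma-activated site TTCNNNGAA bound by STAT proteins, the interferon-stimulated response element, the NF-kappaB consensus and the C/EBP core TTNNGNAA, and no matches of different motifs overlapped. The 4 sequences are shown since these genes include the member with the clearest difference between DSS-treated genotypes (C3) and a member that rose in both genotypes without a match (Cfd). Each is written 5′ to 3′ on the strand of its gene, the minus strand in all 4, with matches in capitals, from chr9:2201340-2201589 for C3, chr5:154419934-154420183 for C1qa, chr5:154407828-154408077 for C1qb and chr7:10465497-10465746 for Cfd.
C3: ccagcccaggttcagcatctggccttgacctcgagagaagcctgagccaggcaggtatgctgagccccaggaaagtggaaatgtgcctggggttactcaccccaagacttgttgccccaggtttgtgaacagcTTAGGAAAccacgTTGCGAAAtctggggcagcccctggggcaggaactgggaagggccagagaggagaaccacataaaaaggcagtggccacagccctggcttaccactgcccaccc
C1qa: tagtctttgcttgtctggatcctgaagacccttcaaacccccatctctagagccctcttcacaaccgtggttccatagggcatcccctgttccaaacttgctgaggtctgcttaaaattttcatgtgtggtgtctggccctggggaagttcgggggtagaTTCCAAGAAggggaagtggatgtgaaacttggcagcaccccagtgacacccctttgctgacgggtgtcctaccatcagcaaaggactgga
C1qb: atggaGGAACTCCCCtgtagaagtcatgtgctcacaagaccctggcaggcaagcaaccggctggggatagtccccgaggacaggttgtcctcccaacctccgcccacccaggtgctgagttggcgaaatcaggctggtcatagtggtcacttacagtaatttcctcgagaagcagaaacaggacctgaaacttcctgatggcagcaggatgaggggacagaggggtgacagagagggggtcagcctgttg
Cfd: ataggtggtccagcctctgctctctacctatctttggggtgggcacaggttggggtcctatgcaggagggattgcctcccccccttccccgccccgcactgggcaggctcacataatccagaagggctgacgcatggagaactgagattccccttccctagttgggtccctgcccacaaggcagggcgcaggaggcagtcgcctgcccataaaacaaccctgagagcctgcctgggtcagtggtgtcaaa
The C3 sequence held 2 matches to the C/EBP core, TTAGGAAA at 117 to 110 bases and TTGCGAAA at 104 to 97 bases before the start, the latter on both strands, and 37.2% of all 33469 promoters held at least 1. C1qa held a gamma-activated site, TTCCAAGAA at 90 to 82 bases before the start, as did 7.67% of all promoters. C1qb held an NF-kappaB match, GGAACTCCCC at 245 to 236 bases before the start, which 6.33% of all promoters held. No member held the interferon-stimulated response element, found in 3.41%, and Cfd held none of the 4 motifs in this window. A match is a run of letters, and binding was not measured.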

How the data were processed

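Each of the 16 arrays, 1 per rat, was deposited by the authors as spot intensity, which Agilent Feature Extraction 10.7.3.1 had corrected for background (per the file headers). Of 62976 spots, 4259 controls were left out and 58717 spots of 30367 probes were kept. Per array, 71.1% to 80.3% of spots were well above background and 0 were saturated, and the number of arrays limits the precision. Each log2 signal was set relative to that of the array's 75th percentile, and the spots of 1 probe were averaged without those flagged as outliers, except for 25 probe values that had no other spot. Probes were named by accession through a RefSeq gene table of GRCr8, and 18006 matched 15159 symbols while 12361 did not.

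Comparisons were fitted with limma 3.58.1 in R 4.3.3 over all 16 arrays, with a mean for each group, p-values were adjusted by the method of Benjamini and Hochberg across the 30367 probes, and the scripts were tested on simulated data. A probe passed at an adjusted p of 0.05 or less. A gene was represented by its brightest probe, and the named genes are the members, the complement genes past the threshold, the marker lists and the genes nearest to each member. A bound "at least N-fold" sets the brighter group's mean against the lowest signal well above background on the dim arrays, or the dim probe's own signal where higher. With other settings for dim signals a change can be smaller than this bound. Alternatives were quantile normalization, scaling on the median of bright probes, normexp (on median spot signal and local background, with an offset of 50 and quantile normalization), a common floor, a filter on dim probes, slide or slide and array row as blocks, outlier spots retained, a fit of the compared groups alone, a minimum change of 2-fold, averaged probes and each rat left out. As terms of the model, slide moved 876 probes past the threshold and array row 0 (limma, 4251 at an unadjusted p under 0.05). The members and lists were chosen with earlier results of these data known. Of the genes that the rule for named genes gives, 2 are not reported here.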

Additional observations from a re-analysis of the deposited data

Results flagged for a closer look

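In 7 of 96 groups checked, over 24 genes, 1 rat lay far from the other 3 of its group, where chance would give about 1 in 20 groups, or 4.8. Untreated wildtype rat 25 was high for C1s (-4.80, with the others at -6.84 to -6.54), C1r (-3.53, others -3.99 to -3.91) and Cd93 (-4.52, others -5.59 to -5.48). Untreated wildtype rat 13 was high for Cfb (-3.64, others -5.01 to -4.79). Untreated Pirc rat 23 was low for C3 (-4.94, others -4.44 to -4.36), and untreated Pirc rat 11 was high for Cd55 (0.53, others -0.52 to -0.41), though not by another probe of Cd55 (-0.40, others -0.84 to -0.45). DSS-treated wildtype rat 14 was high for Itgam (-5.28, others -6.39 to -6.24).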

How the results depend on the processing

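The 7 members that rose after DSS in Pirc rats passed in every alternative and with each rat left out, where the count was 7 to 8. In wildtype rats the count of 6 was 4 to 6 in the other alternatives but 1 with only the compared groups fitted, and ran from 2 to 6 over the rats left out, with 3 without DSS-treated wildtype rat 14, 2 without rat 18 and 3 without untreated wildtype rat 21 or rat 25. Single wildtype calls were lost for C1qb without rats 14, 18, 21 or 25, for Cfd without rat 18, for C5ar1 without rats 13, 14, 17, 18, 21 or 25, and for C1qc without any of 13 rats (kept without rats 20, 22 or 26). Among the other complement genes, wildtype calls were lost for Colec12 without rats 13, 14, 17 or 18, for Thbd without rats 14, 17 or 18 and for Itgam without rat 14. Calls were gained for C1qb in Pirc rats without rat 26, Cfb in wildtype rats without rat 12 and C1qa between DSS-treated genotypes without rat 14. Between DSS-treated genotypes the count of 2 was 1 with only the compared groups fitted and 2 to 3 otherwise. It was 0 between untreated genotypes throughout (limma, 3 members at an unadjusted p under 0.05), and for the difference of DSS effects 0 to 1, the 1 being C3 without rat 12. Fewer arrays entered the fits with only the compared groups, and the cause of the other shifts was not tested. The sign turned for C2 in Pirc rats with quantile normalization (-0.02) and for C5ar1 between untreated genotypes with normexp (0.01) and a common floor (0.06). With rats left out, values that turned ran from -0.24 to 0.49 (C2, DSS in Pirc), -0.40 to 0.16 (C2, DSS in wildtype), -0.46 to 0.04 (C2, untreated genotypes), -0.30 to 0.43 (C2, DSS-treated genotypes), -0.15 to 0.58 (C2, difference of effects), -0.56 to 0.18 (C5ar1, untreated genotypes), -0.18 to 0.24 (C1qb, DSS-treated genotypes), 0.00 to 0.94 (Cfb, DSS-treated genotypes), -0.09 to 0.31 (C1qa, difference of effects) and -0.11 to 0.82 (C1s, difference of effects). Of the other values of members under the alternatives, 464 kept direction and side of the threshold, 15 lost and 4 gained a call. Among all probes past the threshold, the share that was higher was 55.6% for DSS in Pirc rats (37.3% with quantile normalization, 39.3% with normexp) and 76.6% in wildtype rats (53.3% and 48.5%, and 65.1% with a common floor). Quantile normalization moved the median of all probes from 0.04 to -0.10 in Pirc and from 0.09 to -0.06 in wildtype rats. With only the compared groups fitted, 2523, 524 and 2127 probes passed for DSS in Pirc, DSS in wildtype and the DSS-treated genotypes, against 4451, 1165 and 5537, and with a minimum of 2-fold 2265 for DSS in Pirc rats and 1660 for the DSS-treated genotypes. Between untreated genotypes 0 probes passed (limma, 3103 at an unadjusted p under 0.05), against 17 with normexp, 7 with a common floor and 3 with only the compared groups. For the difference of effects 13 probes passed, against 55 with normexp and 32 with a common floor. With 1 rat left out, the probes past the threshold ran from 2776 (without rat 20) to 5281 (rat 24) for DSS in Pirc rats, from 422 (rat 14) to 1801 (rat 26) for DSS in wildtype rats, from 3131 (rat 20) to 6805 (rat 16) for the DSS-treated genotypes and from 8 (rat 11 or 25) to 63 (rat 12) for the difference of effects, and between untreated genotypes reached 4 (rat 16). No paired analysis was possible because each rat number occurs in 1 group only; slide and array row, whose 4 combinations each held 1 rat of every group, were used as blocks instead. Signal near background limits C5ar1, Colec12, Itgam, Itgb2, C3ar1 and C5ar2.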
